A study of Mus musculus with 25 samples.

Results

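Kupffer cells are the resident macrophages of the liver, and 8 of their marker genes were followed through hepatitis caused by ConA, the T cell-activating lectin concanavalin A. The markers were Clec4f, Vsig4, Timd4, Marco, Cd163, Cd5l, Folr2 and Adgre1. They were chosen by name, and every array probe whose RefSeq accession led to one of these symbols was taken. All 8 genes were measured, by 9 probes of the 26582 that carried a gene symbol, and all 8 were among the 15104 genes tested. Adgre1 had 2 probes and the other markers 1 each.

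Whole livers of 25 female mice (C57BL/6, strain C57BL/6NcrSlc) were profiled, each on 1 single-colour Agilent array. The 5 groups of 5 mice were untreated mice, mice given ConA and vehicle and killed at 3 hr or at 24 hr, and mice given ConA and BW245C and killed at the same times. The ConA dose was 10 mg/kg, and vehicle or 1 mg/kg BW245C, an agonist of the prostaglandin D2 receptor DP1, was injected into the abdomen 15 min after it. Untreated mice stand for both times, and no group received vehicle or BW245C without ConA. The mice carried no transgene in the labels, and no age is given here. All 3 questions concerned the whole liver: what ConA did to marker expression by each time, what changed between the times, and whether BW245C altered it.

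Kupffer cells line the hepatic sinusoids, where they take up bacteria, dying cells and ageing red cells from the blood. Their identity is known to depend on the macrophage factors PU.1 and MAF, on Notch signalling through RBPJ, and on signals from sinusoidal endothelial and stellate cells. In several models of liver injury resident Kupffer cells are lost and monocytes enter the liver. In RNA of whole liver, fewer Kupffer cells and less of an mRNA per cell cannot be told apart.

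The array 75th percentile of the processed signal was 301 to 348 in untreated livers, 223 to 318 at 3 hr and 303 to 468 at 24 hr, and 52.2% to 61.6% of spots were well above background. The number of arrays limits the precision, and the p-values measure the spread between mice of these groups. Arrays lay on 5 slides, and no slide held both untreated livers and livers of ConA with vehicle at 24 hr. The liver markers were as labelled, as all 12 genes of a hepatocyte list were measured, with a mean log2 level of 7.46 to 8.85 relative to the array's 75th percentile over the 25 arrays.

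RefSeq promoters (build GRCm38.p6) were found for 7 of the 8 genes. The 250 bases upstream of the transcription start of 4 markers are shown because these genes stood for the different courses seen below: Clec4f and Vsig4 for the deepest fall, Timd4 for a late fall and Marco for none. Each runs 5′ to 3′ on the strand of its gene. Clec4f lies at chr6:83656117-83656366 (minus strand), Vsig4 at chrX:96293439-96293688 (minus strand), Timd4 at chr11:46810549-46810798 (plus strand) and Marco at chr1:120505025-120505274 (minus strand). Capitals mark matches on either strand to GAGGAA (the core bound by PU.1 and other ETS factors), TGGGAA (bound by RBPJ) or TGCTGAC (a MAF half-site).
Clec4f: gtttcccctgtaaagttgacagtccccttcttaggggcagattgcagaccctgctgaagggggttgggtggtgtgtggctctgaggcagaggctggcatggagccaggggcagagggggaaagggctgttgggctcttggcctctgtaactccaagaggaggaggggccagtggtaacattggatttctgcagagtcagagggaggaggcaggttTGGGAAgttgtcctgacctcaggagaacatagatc
Vsig4: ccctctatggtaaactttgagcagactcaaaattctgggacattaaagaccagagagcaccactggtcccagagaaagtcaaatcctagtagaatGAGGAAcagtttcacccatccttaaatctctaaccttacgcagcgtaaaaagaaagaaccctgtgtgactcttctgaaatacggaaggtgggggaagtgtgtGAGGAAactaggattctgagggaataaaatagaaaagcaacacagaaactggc
Timd4: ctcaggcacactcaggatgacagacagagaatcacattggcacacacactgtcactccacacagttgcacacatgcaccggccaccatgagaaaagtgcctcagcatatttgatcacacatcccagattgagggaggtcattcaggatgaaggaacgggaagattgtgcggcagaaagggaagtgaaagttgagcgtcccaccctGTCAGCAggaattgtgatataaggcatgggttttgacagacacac
Marco: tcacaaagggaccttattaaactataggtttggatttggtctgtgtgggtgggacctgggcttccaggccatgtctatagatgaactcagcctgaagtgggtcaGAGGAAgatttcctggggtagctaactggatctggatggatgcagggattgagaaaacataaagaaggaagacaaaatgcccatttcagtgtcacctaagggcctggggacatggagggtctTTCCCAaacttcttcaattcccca
The Clec4f window held TGGGAA at -35 from the start. The Vsig4 window held GAGGAA at -155 and -53, the Timd4 window the MAF half-site on the other strand at -45, and the Marco window GAGGAA at -146 and, on the other strand, TGGGAA at -24. Among all 8 windows of the 7 genes (Folr2 had 2), GAGGAA was in 3, TGGGAA in 2 and TGCTGAC in 1. The same letters were in 23.25%, 21.59% and 3.811% of 32851 mouse promoters of this length. The AP-1 site TGANTCA was in 1 window, that of Folr2 at -74, and in 6.749% of promoters. The letters TTGCNNAA (C/EBP), TTCNNNGAA (STAT) and TATAAA were in 0 of the 8 windows and in 9.564%, 7.02% and 12.37% of all promoters. None of the marked matches overlapped another. A match describes the letters of a window and is not evidence of binding.

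By 24 hr after ConA with vehicle, 7 of 8 markers had fallen, Vsig4 by 24.8-fold and Clec4f by 16.6-fold, and no change of Marco was called. The Vsig4 value leaves out a spot with an outlier flag, and with that spot kept Vsig4 fell less than Clec4f. At 3 hr 3 markers were called lower, where 37% of all genes were, and 0 with the slide as a fixed block, where 31.4% were. Timd4 (0.50) and Marco (0.64) lay above their untreated means at 3 hr and were not called. Levels below are the log2 processed signal minus the log2 of the array's 75th percentile, and they compare arrays, not probes. Changes are differences of group means on this scale, tested with limma over all 15104 genes, and a gene was called at a Benjamini-Hochberg adjusted p under 0.05.

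**Figure D1:**
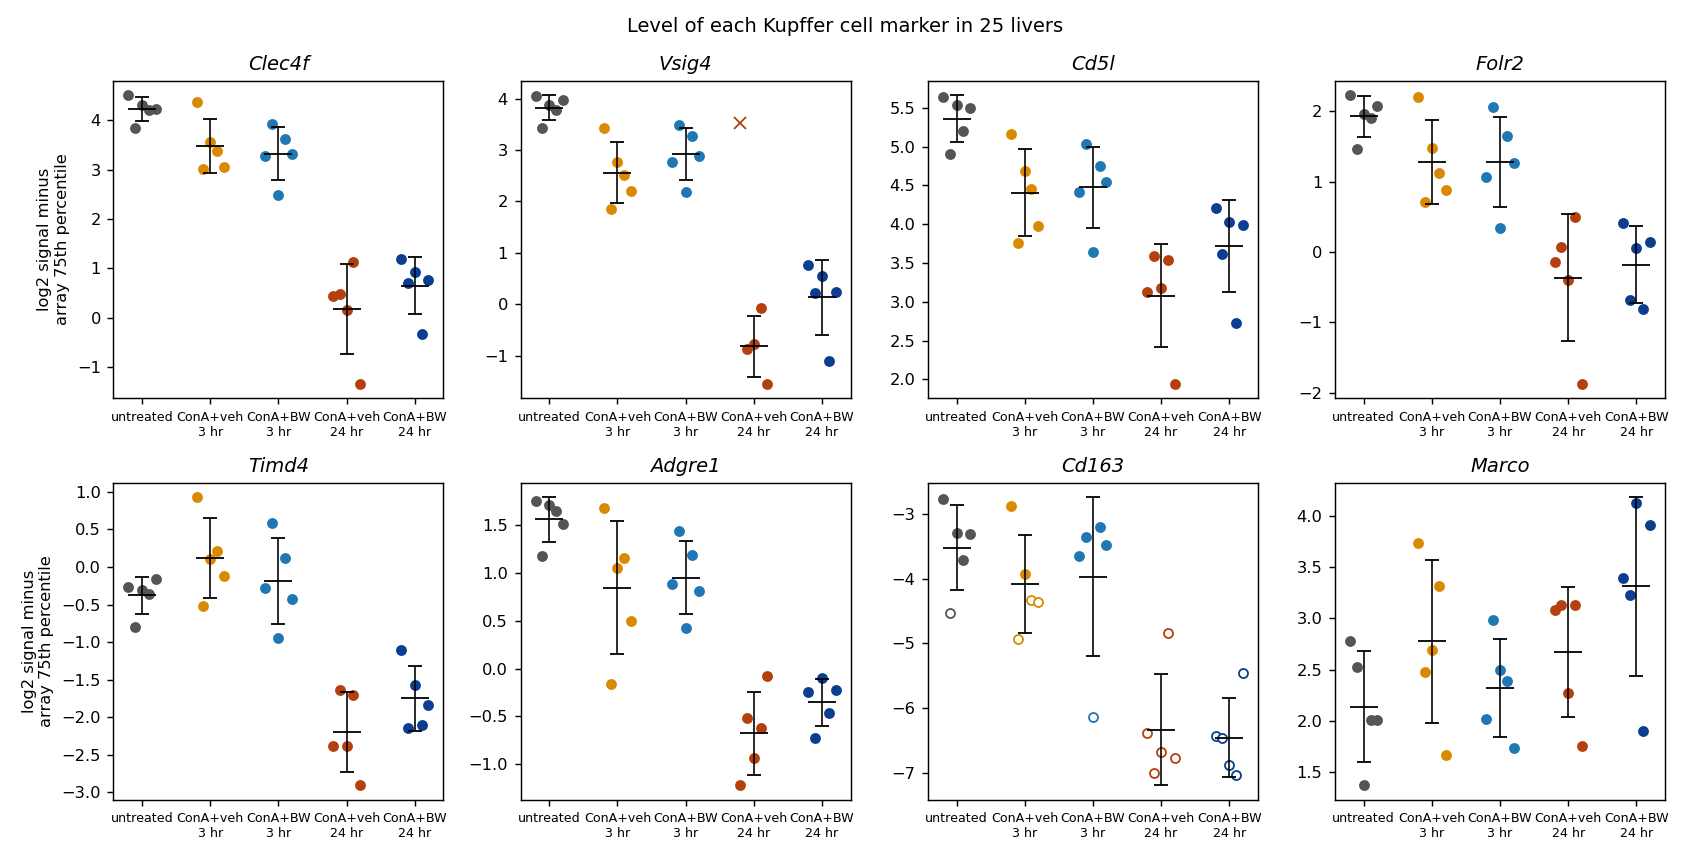
Level of each of the 8 markers (log2 signal minus the array 75th percentile) in every liver, by group; bars give the group mean and SD, open circles are spots not well above background, and the cross is the Vsig4 spot left out for an outlier flag. Apart from that spot, the 24 hr livers lie below all untreated livers for every marker but Marco.

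Vsig4 encodes the complement receptor CRIg, with which Kupffer cells catch complement-coated bacteria. Its log2 level in untreated livers 1 to 5 was 4.05, 3.43, 3.88, 3.77 and 3.97. At 3 hr with vehicle it was 3.43, 1.86, 2.77, 2.52 and 2.21, and at 24 hr -0.87, -0.77, -0.08 and -1.54 in mice 2 to 5. The spot of mouse 1 at 24 hr carried an outlier flag, read 3.52, and was left out, so that n = 4 there. All 4 remaining livers at 24 hr lay below every untreated liver and every liver at 3 hr. The change from untreated at 24 hr was -4.63 ± 0.35 (SE), a 24.8-fold lower signal (limma, adjusted p = 1.02e-10). With the flagged spot kept it was -3.77 (limma, adjusted p = 8.38e-06).

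Clec4f is a C-type lectin made in mouse liver almost only by Kupffer cells. Its log2 level was 4.50, 3.85, 4.31, 4.21 and 4.24 in untreated livers, and 0.43, 0.48, 0.16, 1.13 and -1.34 at 24 hr with vehicle. The 5 livers at 24 hr were all lower than the untreated ones and than those at 3 hr (4.37, 3.01, 3.57, 3.37 and 3.05). The change at 24 hr was -4.05 ± 0.36 (SE), or 16.6-fold lower (limma, adjusted p = 8.8e-10). At 3 hr it was -0.75 ± 0.36, which did not pass (limma, adjusted p = 0.0764). That value passed without mouse 1 of ConA with vehicle at 3 hr, the highest of its group (-0.97; limma, adjusted p = 0.0248), and with the scaling of the deposited matrix (-0.85; limma, adjusted p = 0.048).

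Timd4 is a receptor for phosphatidylserine on dying cells and marks long-lived resident macrophages. It read -0.26, -0.80, -0.31, -0.35 and -0.16 in untreated livers and 0.93, -0.51, 0.11, 0.22 and -0.13 at 3 hr with vehicle, so the groups overlapped. At 24 hr it read -2.39, -1.64, -2.38, -1.70 and -2.91, below all livers of both other groups. Its change was 0.50 ± 0.29 at 3 hr (limma, adjusted p = 0.134) and -1.82 ± 0.29 at 24 hr (limma, adjusted p = 5.95e-06).

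Marco is a scavenger receptor for bacteria and particles. Its log2 level was 2.78, 2.52, 1.37, 2.01 and 2.00 in untreated livers, 3.74, 2.47, 2.69, 3.31 and 1.67 at 3 hr with vehicle, and 3.08, 3.13, 2.27, 3.13 and 1.75 at 24 hr. The 3 groups overlapped throughout. Its change at 24 hr was 0.53 ± 0.41 (limma, adjusted p = 0.246), with a 95% confidence interval of -0.31 to 1.37.

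Cd163, the scavenger receptor for haptoglobin-bound haemoglobin, lay near background. It was well above background on 4 of 5 untreated arrays, on 2 of 5 at 3 hr with vehicle and 4 of 5 with BW245C, and on 0 of 5 in either group at 24 hr. Its change at 24 hr with vehicle was -2.81 (limma, adjusted p = 3.53e-05), computed from values at 24 hr that were not well above background. With a floor at the lowest signal above background on each array, its signal there was 2.40-fold lower than in untreated livers, and 2.43-fold with BW245C. These floored values were not tested. Each sets the untreated mean of -3.52 against the higher of the measured value and that floor. The floored mean was -4.79 at 24 hr with vehicle. Untreated mouse 2 read -4.53, above that mean, and was still not well above background. The fall may therefore be smaller than these values.

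Cd5l encodes a secreted protein of macrophages, also called AIM. It read 5.64, 4.91, 5.54, 5.20 and 5.50 in untreated livers, 5.16, 3.76, 4.68, 4.45 and 3.98 at 3 hr with vehicle, and 3.13, 3.60, 3.18, 3.54 and 1.95 at 24 hr. The levels at 24 hr lay below those of both other groups. Its changes were -0.95 ± 0.32 at 3 hr (limma, adjusted p = 0.0139) and -2.28 ± 0.32 at 24 hr (limma, adjusted p = 1.44e-06).

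Folr2 encodes folate receptor beta of macrophages. Its level fell from 2.23, 1.46, 1.97, 1.91 and 2.07 in untreated livers to -0.15, 0.07, -0.40, 0.50 and -1.87 at 24 hr with vehicle, with no overlap. The change was -2.29 ± 0.37 (limma, adjusted p = 9.57e-06). Adgre1 encodes the F4/80 antigen, which monocyte-derived macrophages carry as well. Its brighter probe read 1.76, 1.18, 1.72, 1.65 and 1.51 in untreated livers and -1.22, -0.52, -0.94, -0.62 and -0.07 at 24 hr, again with no overlap. The change was -2.24 ± 0.26 by the brighter and -1.99 ± 0.28 by the dimmer probe (limma, adjusted p = 7.14e-08 and 1.01e-06).

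At 3 hr with vehicle, 3 of 8 markers were called lower (Vsig4, Cd5l and Adgre1) and 0 higher, where 37% of all genes were called lower and 25% higher. The share of markers called lower was near that background. The Adgre1 call was lost without mouse 2 or mouse 5 of ConA with vehicle at 3 hr, and without mouse 1 the calls were 5, with Clec4f and Folr2 (-0.88; limma, adjusted p = 0.0467) added. Their median change was -0.68, against -0.09 over all genes. In 0 of 8 markers were the groups free of overlap, against 29.2% of all genes lower and 18.2% higher. At 24 hr, 7 of 8 were called lower and 0 higher, against 39.1% lower and 29.8% higher of all genes. The same 7 separated the groups without overlap, against 36.7% of genes in that direction. For Cd163 this rests on livers at 24 hr that were all not well above background, and for Vsig4 on leaving out its flagged spot. The median change of the 8 markers was -2.29 with a median of -0.08 over all genes. Scaled by the factors of the deposited matrix, 25% of genes were called lower and 48% higher at 24 hr, the median of all genes moved by 0.34, and Clec4f changed by -3.70. That scaling moved the median by -0.11 at 3 hr.

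The comparisons at both times share the untreated livers. With the slide as a fixed block, 0 of 8 markers were called lower at 3 hr (Vsig4 -0.98; limma, adjusted p = 0.0798), and 1 with a random block. At 24 hr the fixed block left 5 of 8 called lower by limma, as Folr2 (-1.55, adjusted p = 0.0803) and Cd163 (-2.30, adjusted p = 0.0504) no longer passed. Under the fixed block 31.4% of all genes were called lower at 3 hr and 28.1% at 24 hr. Clec4f then changed by -3.40 and Vsig4 by -3.79 (limma, adjusted p = 0.000587 and 0.00101). Within the slides that held both untreated livers and livers at 3 hr with vehicle, Vsig4 differed by -1.15 on slide 1 and -0.79 on slide 2, and Cd5l by -0.79 and -0.45. Slide 1 held 1 such liver at 3 hr and 4 untreated livers. Slide 2 held 2 at 3 hr and 1 untreated, mouse 2, the lowest of its group for 7 of 8 markers.

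**Figure D2:**
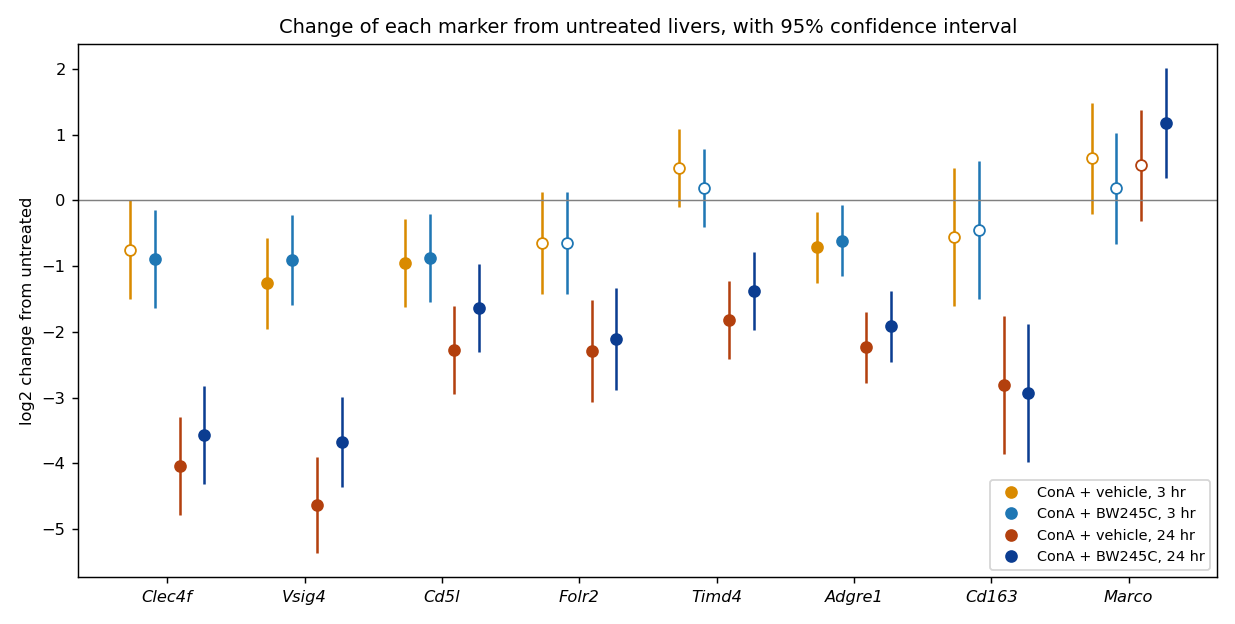
Log2 change of each marker from untreated livers in the 4 treated groups, with 95% confidence intervals from limma; filled points were called. At 24 hr 7 markers fell in both treatments, from -1.37 for Timd4 to -4.63 for Vsig4 without its flagged spot. Marco lay above 0.

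The markers did not move as one. The difference between the changes of 2 markers was tested for each of the 28 pairs at each time with an exact two-sided permutation of the mice, 56 tests adjusted together; the smallest p these groups allow is 0.00794. It passed for 17 pairs at 3 hr and 19 at 24 hr, and the share among pairs of other genes was not computed. At 24 hr the pairs of Vsig4 leave out its flagged spot (n = 4 with vehicle). Those of Cd163 rest on spots at 24 hr that were not well above background. At 24 hr Clec4f fell by 4.58 more than Marco, by 2.22 more than Timd4 and by 1.77 more than Cd5l (exact permutation, adjusted p = 0.0159 for each). Clec4f and Vsig4 differed by 0.52, which did not pass (exact permutation, adjusted p = 0.133). At 3 hr the change of Vsig4 was below that of Timd4 by 1.76 and below that of Marco by 1.90 (exact permutation, adjusted p = 0.0159 for both). Clec4f was likewise below Timd4 by 1.25 at 3 hr (exact permutation, adjusted p = 0.0159).

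Between 3 hr and 24 hr with vehicle, 7 of 8 markers were called lower at the later time and 0 higher, where 35.3% of genes were called lower and 33.2% higher (19.3% and 55.3% with the scaling of the deposited matrix). Vsig4 changed by -3.37 ± 0.35, Clec4f by -3.30 ± 0.36 and Timd4 by -2.33 ± 0.29 (limma, adjusted p = 1.69e-08, 2.47e-08 and 1.67e-07). With the flagged Vsig4 spot left out, all livers at 24 hr lay below those at 3 hr for Clec4f, Vsig4, Timd4, Cd5l and Folr2. Of all genes 27.4% separated in this direction. Slide 3 held 1 liver at 24 hr and 2 at 3 hr with vehicle, and there Clec4f differed by -2.78 and Timd4 by -2.44. With the fixed block Cd5l (-0.97) and Folr2 (-1.23) no longer passed (limma, adjusted p = 0.0942 and 0.0703). Marco changed by -0.11 ± 0.41 and was not called. With BW245C, 7 of 8 fell and 1 rose from 3 hr to 24 hr, against 34.3% of genes lower and 35.8% higher (24% and 47.6% with the other scaling). The marker that rose was Marco, by 0.99 ± 0.41 (limma, adjusted p = 0.0337), and it was not called with the slide as a fixed block (1.10; limma, adjusted p = 0.149), or without mouse 1 or 5 at 3 hr or mouse 1, 3 or 5 at 24 hr of ConA with BW245C. Clec4f, Vsig4, Timd4 and Adgre1 had no overlap between these times, against 24.6% of genes in that direction. With the slide as a fixed block 5 remained called lower, against 28.4% of all genes, as Folr2 (-1.46) and Cd5l (-0.78) did not pass (limma, adjusted p = 0.0633 and 0.246). The Cd5l call (-0.76; limma, adjusted p = 0.0404) was also lost with the scaling of the deposited matrix (-0.54; limma, adjusted p = 0.153), quantile normalization, no filter, the random slide block and the replicate block, and without mouse 1, 2, 4 or 5 at 3 hr or mouse 2 or 4 at 24 hr of ConA with BW245C.

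Against vehicle, BW245C left 0 of 8 markers called at 3 hr and 1 of 8 at 24 hr. At 3 hr, 0 of 8 markers were called, where 16.9% of genes were lower and 11.8% higher (11.6% and 19% with the scaling of the deposited matrix). Their changes ran from -0.46 for Marco to 0.36 for Vsig4, and 0 of 8 had an unadjusted p under 0.05 in limma. The 95% confidence interval was -0.90 to 0.60 for Clec4f and -0.90 to 0.29 for Timd4. Clec4f read 3.28, 3.93, 2.48, 3.61 and 3.32 with BW245C at 3 hr, overlapping the vehicle group.

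At 24 hr, 1 of 8 markers was called, against 17.6% of genes higher and 8.95% lower (13% and 17.3% with the other scaling). Vsig4 read 0.77, 0.23, 0.56, -1.10 and 0.25 with BW245C, against -1.54 to -0.08 in the 4 vehicle livers, and the groups overlapped. It was higher by 0.96 ± 0.35 (limma, adjusted p = 0.0481). The call was lost without any 1 of 18 of the 25 mice, for example without mouse 5 of ConA with vehicle at 24 hr (0.71; limma, adjusted p = 0.16). It was also lost with the slide as a fixed block (0.78; limma, adjusted p = 0.253) and with the flagged spot kept (0.09; limma, adjusted p = 0.933). On slide 4, which held 4 vehicle and 3 BW245C livers, Vsig4 differed by 0.78.

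The other markers were not called between BW245C and vehicle at 24 hr. The differences were 0.64 ± 0.32 for Cd5l, 0.64 ± 0.41 for Marco, 0.48 ± 0.36 for Clec4f and 0.45 ± 0.29 for Timd4 (limma, adjusted p = 0.151, 0.251, 0.34 and 0.253). They were 0.32 for Adgre1, 0.19 for Folr2 and -0.12 for Cd163, which was well above background on 0 of 5 arrays in either group. The 95% confidence interval was -0.27 to 1.23 for Clec4f and -0.03 to 1.31 for Cd5l. Cd5l was called without mouse 4 of ConA with BW245C at 24 hr, the lowest of its group (0.88; limma, adjusted p = 0.0379). Of the 8 markers 0 had an agonist effect that differed between the times, where 19.3% of genes had a more positive effect at 24 hr and 10.8% a more negative one (9.5% and 20.2% with the other scaling). Marco came closest, at 1.10 ± 0.57 (limma, adjusted p = 0.148), and was called without the same mouse 4 (1.45; limma, adjusted p = 0.0366).

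Against untreated livers, ConA with BW245C gave 4 of 8 markers lower at 3 hr (Vsig4, Clec4f, Cd5l and Adgre1), where 42.3% of genes were lower and 27% higher. With the slide as a block, fixed or random, 0 were called (19.7% of all genes were lower with the fixed block). Without untreated mouse 1 or 3 or mouse 1 of ConA with BW245C at 3 hr, 2 were. Without mouse 3 of that group, the lowest for 7 of 8 markers, the calls of Clec4f, Cd5l, Vsig4 and Adgre1 were all lost. At 24 hr 7 were lower and Marco was higher, against 33.8% of genes lower and 22.7% higher (21% and 36.4% with the other scaling). Clec4f changed by -3.57 ± 0.36 and Vsig4 by -3.68 ± 0.33 (limma, adjusted p = 1.65e-08 and 4.3e-09). The 7 separated without overlap, against 26.8% of genes in that direction, though no Cd163 spot at 24 hr was well above background. Marco read 3.39, 3.23, 4.13, 1.90 and 3.91, with 4 livers above every untreated one. It was higher by 1.17 ± 0.41 (limma, adjusted p = 0.0168), and not called with the slide as a fixed block (1.58; limma, adjusted p = 0.0774) or without untreated mouse 3 or mouse 3 of its own group. With that block 4 of 8 remained called lower, against 20.9% of all genes, as Cd5l, Timd4 and Folr2 did not pass.

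Ordered by group mean, Clec4f and Vsig4 had a gap with no overlap between the livers of 3 hr and those of 24 hr, and neighbours on either side of it overlapped. For Vsig4 this leaves out the flagged spot at 24 hr, which read 3.52, above every liver of 3 hr. Folr2 had a gap between its neighbours ConA with vehicle at 3 hr and ConA with BW245C at 24 hr, but the lowest liver of ConA with BW245C at 3 hr (0.35) lay below the highest of that treatment at 24 hr (0.41). Timd4 had its gap between untreated livers and both groups at 24 hr. For Cd5l, Adgre1, Cd163 and Marco each group overlapped the next in order.

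The markers also varied together between mice of 1 group. With group means removed, Pearson's r and Spearman's rho were computed for all 28 pairs, with p from 100000 permutations of the mice within groups. The groups hold 5 mice each, too few for a value within a group. The 10 pairs with the highest r were those among Clec4f, Vsig4, Cd5l, Folr2 and Timd4, so these 5 are a set picked by r. Over these pairs r was 0.83 to 0.96 and rho 0.81 to 0.96 (permutation, adjusted p = 2.8e-05). The unadjusted p was 1e-05 by permutation, the smallest these permutations can give. Without the 2 mice farthest from the median in 1 marker of the pair, r was 0.87 to 0.95. With these mice kept and slide removed as well as group, r was 0.84 to 0.96. The closest pair was Clec4f with Folr2 (r = 0.96).

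Over all 28 pairs, 23 passed by r and 24 by rho, and the share among pairs of other genes was not computed. The pairs of Cd163 include values not well above background, among them all those at 24 hr. Marco with Clec4f gave r = 0.66 and rho = 0.68 (permutation, adjusted p = 0.0022 and 0.00174), and r was 0.50 without the 2 mice farthest in Clec4f. The lowest r was that of Marco with Cd163, 0.27. For Adgre1 with Clec4f r was 0.31 and rho 0.46 (permutation, adjusted p = 0.2 and 0.0507), and r became 0.70 without the 2 mice farthest in Clec4f. Mouse 1 of ConA with vehicle at 3 hr was the highest of its group for 8 of 8 markers and mouse 2 the lowest for 7. Mouse 2 of ConA with BW245C at 3 hr was highest for 7, mouse 5 of ConA with vehicle at 24 hr lowest for 6, and mouse 4 of ConA with BW245C at 24 hr lowest for 6. In the untreated group mouse 1 was highest for 7 and mouse 2 lowest for 7. Sinusoidal endothelial genes moved the same way in several mice but not in all. The mean log2 deviation of their list from the group mean was 0.33 in mouse 1 and -0.50 in mouse 2 of ConA with vehicle at 3 hr. It was -0.52 in mouse 3 of ConA with BW245C at 3 hr and -0.47 in mouse 5 of ConA with vehicle at 24 hr. That of the markers was 0.91, -0.65, -0.83 and -0.79 in these mice. The neutrophil list gave 0.68, 0.28, -0.47 and -0.26 there, and the hepatocyte list 0.03, 0.24, 0.09 and 0.35. In mouse 4 of ConA with vehicle at 24 hr the endothelial list gave 0.02 and the markers 0.69. In mouse 5 of that treatment at 3 hr they gave 0.01 and -0.45. The part of these lists in the co-variation was not tested.

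**Figure D3:**
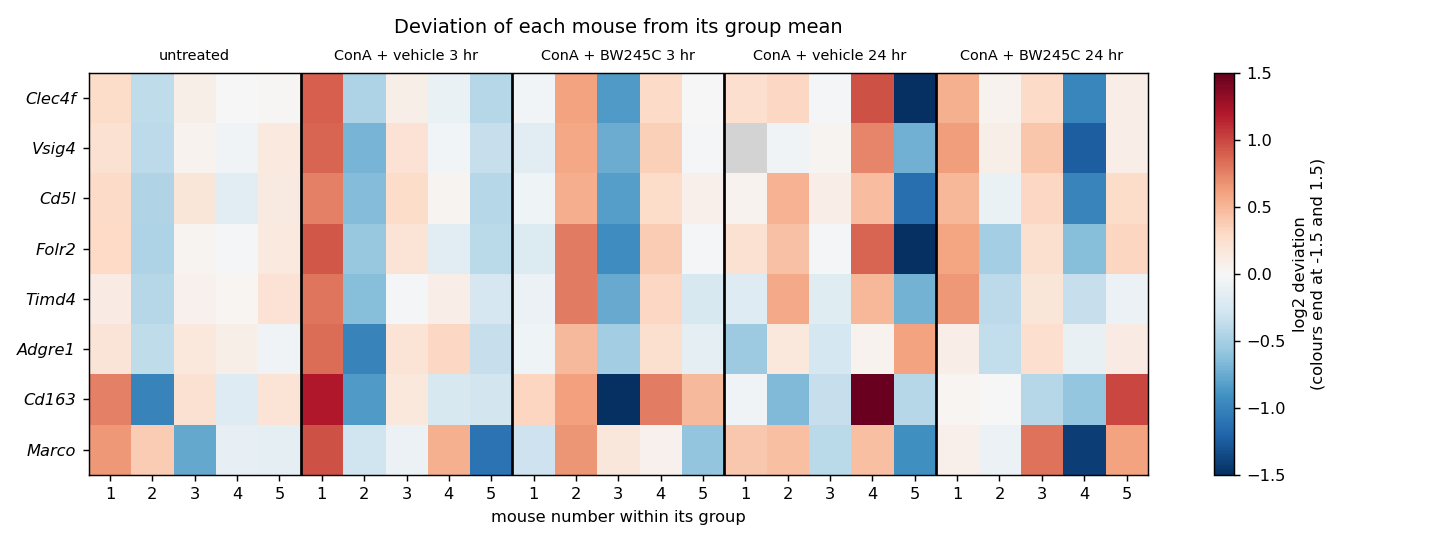
Log2 deviation of each liver from its group mean for the 8 markers (rows) in the 25 mice (columns, by number within the group); the grey cell is the flagged Vsig4 spot. Whole columns are red or blue together, such as mouse 1 (high) and mouse 2 (low) of ConA with vehicle at 3 hr.

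The genes that varied most closely with Clec4f between mice were ranked over all 15103 other genes, an analysis added after the values were seen. The median r over all genes was -0.04, and 5% of genes were above 0.47. Folr2 ranked 1, Cd5l 3, Vsig4 6 and Timd4 15, while Cd163 ranked 151, Marco 206 and Adgre1 1851. The other 11 genes of the first 15 were Ear2, Rnase2a, Ear1, Ear10, Epb41l3, Spic, Dmpk, Clec1b, Fcna, Cd38 and C1qa, with r from 0.85 to 0.96. Ear1, Ear2, Ear10 and Rnase2a are near-identical genes of the eosinophil-associated ribonuclease family, so their probes may read each other. Spic encodes the transcription factor of macrophages that recycle red cell iron, Fcna a ficolin, C1qa a chain of complement C1q, and Clec1b the C-type lectin CLEC-2.

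**Figure D4:**
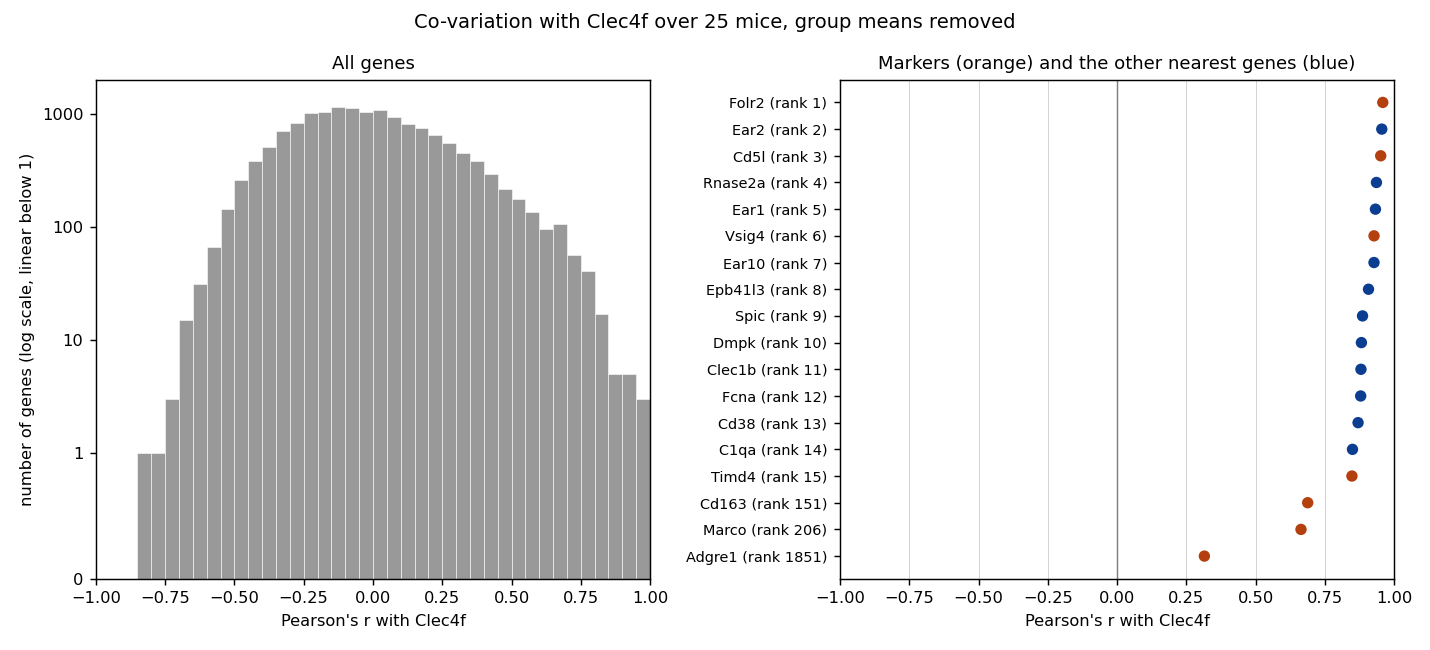
Pearson's r with Clec4f over 25 mice after group means were removed: number of genes by r (left, log scale, linear below 1), and the 7 other markers with the rest of the 15 highest genes (right). Folr2, Cd5l, Vsig4 and Timd4 rank 1, 3, 6 and 15 of 15103, and Adgre1 1851.

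At 24 hr with vehicle, 9 of 11 were called lower and 0 higher, against 39.1% lower of all genes, and their median change was -1.13. Of these 11 genes, Fcna changed by -2.09 ± 0.29, Clec1b by -1.58 ± 0.19 and C1qa by -0.98 ± 0.28 (limma, adjusted p = 1.22e-06, 8.86e-08 and 0.00385). The exceptions were Cd38 at 0.17 and Spic at 0.33 (limma, adjusted p = 0.506 and 0.281). At 3 hr Spic rose by 2.60 ± 0.27 (limma, adjusted p = 1.34e-08), while Epb41l3, Dmpk, Clec1b and C1qa fell, 4 of the 11 against 37% of all genes. Ear2 changed by 0.50 at 3 hr and by -1.18 at 24 hr (limma, adjusted p = 0.114 and 0.000593). For Ear1, Ear2, Rnase2a and Spic the agonist effect was more positive at 24 hr than at 3 hr by 1.06 to 1.35 (limma, adjusted p = 0.0417, 0.0215, 0.0168 and 0.0392), against 19.3% of genes called in that direction.

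By a different measure, the root mean square difference of the 4 group mean changes from untreated, the genes nearest to Clec4f were Scd1 (0.23), Dct (0.24), Car14 (0.25), Ces1e (0.28) and Cyp1a2 (0.31). Between mice of 1 group, the r of these 5 genes with Clec4f ran from -0.55 for Car14 to 0.35 for Dct. Nearest to Timd4 were Lhpp (0.08), Fhod3 (0.13), Prickle1 (0.15), Man1a (0.17) and Rabgap1l (0.19). Nearest to Marco were Tmem176b (0.13), Ang (0.15), H2-T23 (0.17), H2-Q2 (0.19) and Psme1 (0.20). Nearest to the mean of the markers were Mgll (0.04), Gm2a (0.09), C8g (0.11), Suox (0.11) and Khk (0.11). These distances are over 4 group means of 20 treated livers that share 1 control group, and they are a description.

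Other genes of Kupffer cells and resident macrophages moved both ways. Of 30 measured genes of that list, 4 rose and 15 fell at 3 hr with vehicle, and 7 rose and 13 fell at 24 hr, with a median change of -0.45 at either time. Of all genes 25% rose and 37% fell at 3 hr, and 29.8% rose and 39.1% fell at 24 hr, so the counts at 24 hr were near that background. Csf1r, the receptor that macrophages need to survive, changed by -0.41 ± 0.15 at 3 hr and -1.40 ± 0.15 at 24 hr (limma, adjusted p = 0.0209 and 1.93e-08). The iron exporter Slc40a1 fell by 1.65 at 24 hr, while the haem-degrading enzyme Hmox1 rose by 2.38 and the interleukin-18 antagonist Il18bp by 2.62 (limma, adjusted p = 3.23e-09, 6.65e-11 and 1.71e-12). Chosen after their values were seen, the transcription factor genes Maf and Nr1h3 changed by -2.13 and -0.34 at 3 hr (limma, adjusted p = 1.65e-12 and 0.00587). At 24 hr Maf and Nr1h3 changed by -1.18 and -0.77 (limma, adjusted p = 2.73e-08 and 5.74e-07).

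Against vehicle at 24 hr, 7 of the 30 were higher and 1 lower with BW245C, where 17.6% of all genes were higher and 8.95% lower (13% and 17.3% with the scaling of the deposited matrix), so the number higher was near the background. Slc40a1 differed by 0.98 ± 0.16 and Hmox1 by -0.88 ± 0.18 (limma, adjusted p = 0.000124 and 0.00107). Csf1r differed by 0.25 ± 0.15 (limma, adjusted p = 0.221). These genes are expressed in other liver cells too: Hmox1, Slc40a1 and Maf in hepatocytes or endothelium among them.

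Signals of the Kupffer niche and their receptors went both ways. Of 24 measured genes, 9 rose and 7 fell at 3 hr (25% and 37% of all genes), and 10 rose and 9 fell at 24 hr (29.8% and 39.1% of all genes). The counts at 24 hr were near those shares. At 24 hr the endothelial adhesion gene Icam1 changed by 3.23 ± 0.21, and Gdf2, which encodes the stellate cell signal BMP9, by -1.77 ± 0.18 (limma, adjusted p = 4.87e-12 and 1.01e-08). Il1rap, a shared chain of interleukin-1 and interleukin-33 receptors, changed by -2.67 ± 0.15 (limma, adjusted p = 6.69e-13). With BW245C against vehicle at 24 hr, Icam1 differed by -1.08, Gdf2 by 0.87 and Il1rap by 1.08 (limma, adjusted p = 0.000699, 0.00119 and 3.56e-05). In that comparison 5 of the 24 genes were higher and 3 lower, near the 17.6% and 8.95% of all genes. Icam1, Gdf2 and Il1rap were picked by their p at 24 hr with vehicle, and those livers are also the reference there. The growth factor Csf1 was higher by 2.53 at 3 hr and by 1.48 at 24 hr (limma, adjusted p = 1.95e-11 and 1.09e-07), a gene chosen after its value was seen.

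Genes for the clearance of dying cells and scavenging fell in 9 and rose in 5 of 18 at 24 hr, and fell in 7 and rose in 5 at 3 hr. Of all genes 39.1% fell and 29.8% rose at 24 hr and 37% and 25% at 3 hr, and these counts were near those shares. The mannose receptor Mrc1, which sinusoidal endothelium also makes, changed by -3.26 ± 0.23 at 24 hr, the integrin Itgb5 by -1.26 ± 0.12 and the collectin Colec12 by -0.99 ± 0.11 (limma, adjusted p = 1.94e-11, 1.65e-09 and 2.59e-08). Cd300lf, a receptor for lipids of dying cells that neutrophils also carry, rose by 3.67 ± 0.25 (limma, adjusted p = 1.21e-11). BW245C against vehicle at 24 hr gave Mrc1 at 1.01, Itgb5 at 0.74, Colec12 at 0.56 and Cd300lf at -0.76, each called. In that comparison 6 of the 18 genes were higher and 2 lower, where 17.6% of all genes were higher and 8.95% lower. The named genes were picked by their p at 24 hr with vehicle, and those livers are also the reference here.

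Markers of other cells moved with the Kupffer markers, and their part in the result was not tested. The counts of these lists stand against 39.1% of all genes lower and 29.8% higher at 24 hr with vehicle. Of 18 sinusoidal endothelial genes 14 fell and 3 rose at 24 hr with vehicle, and their summed level went from 128 to 150 in untreated livers to 50.5 to 58.9. Clec4g changed by -5.80, Oit3 by -3.85 and Ehd3 by -2.44 (limma, adjusted p = 1.03e-14, 5.27e-12 and 5.51e-12). Of 12 hepatocyte genes 11 fell and 1 rose, with a summed level of 6326 to 7624 before and 4360 to 5644 after, among them Cyp2e1 (-2.34), Cps1 (-1.91), Ttr (-1.37) and Asgr1 (-0.87). Of 10 stellate cell genes 5 fell and 1 rose, with a summed level of 11 to 12.4 in untreated livers and 6.29 to 8.84 at 24 hr; the number that fell was near the background.

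Most genes of the neutrophil, T and NK cell and B cell lists rose at 24 hr with vehicle, where 29.8% of all genes rose and 39.1% fell. Of 13 neutrophil genes 11 rose and 0 fell at 24 hr with vehicle, and their summed level went from 124 to 134 in untreated livers to 1110 to 1180. S100a8 rose by 7.87, S100a9 by 7.71 and Lcn2 by 6.95 (limma, adjusted p = 1.76e-14, 7.84e-15 and 1.41e-18). Of 24 genes of monocytes and recruited macrophages 13 rose and 5 fell, with a summed level of 1329 to 1396 before and 1241 to 1475 after. The sum weighs the brightest genes most, and the mean log2 level of the list was 0.15 to 0.35 before and 1.84 to 2.08 after. Chil3 rose by 6.13 and Cd14 by 5.60 (limma, adjusted p = 3.6e-13 and 5.75e-14), and Clec4e was well above background on 0 of 5 untreated and 5 of 5 such arrays. Genes of T and NK cells rose in 13 and fell in 0 of 14 (Gzmb by 5.39 and Gzma by 3.92), those of B cells in 6 and 0 of 6 (Ms4a1 by 1.88), and those of dendritic cells in 6 and 1 of 9 (Ccr7 by 2.63).

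**Figure D5:**
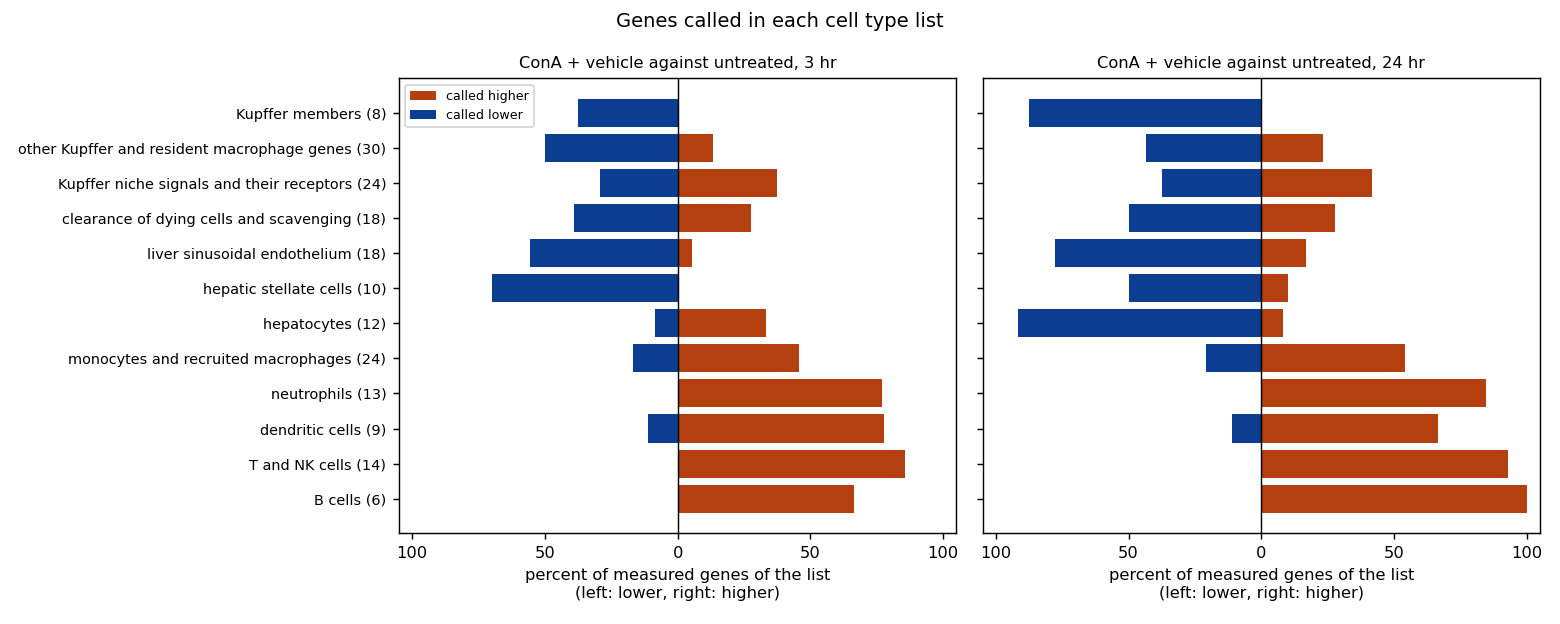
Share of the measured genes of each list (number in brackets) called higher (right) or lower (left) by limma for ConA with vehicle against untreated livers at 3 hr and 24 hr. At 24 hr the Kupffer, sinusoidal endothelial and hepatocyte lists lean to lower, and the leukocyte lists to higher.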

How the data were processed

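Liver RNA was purified on columns and labelled for single-colour arrays, per the labels' protocols. The deposited files hold processed signal intensities per spot, written by Agilent Feature Extraction 10.7.3.1 per the file headers, where the submitters' processing notes name version 9.1. The deposited series matrix holds the same intensities multiplied by 1 factor per array, whose rule is not given in the sources used here. From 59305 non-control spots on each array, flagged outlier spots were left out (93 to 192 per array). Replicate spots were averaged to 55681 probes as log2 intensity minus the log2 of the array's 75th percentile. Only probes that 5 or more of the 25 arrays showed well above background were kept, probes were named through RefSeq accessions, and the brightest probe of a gene was used; 29099 probes without a symbol entered no gene result.

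One model over the 5 groups was fitted with limma 3.58.1 (R 4.3.3; data handling with the R package data.table, version 1.17.8), with Benjamini-Hochberg adjustment over 15104 genes. Figures and promoter matches used Python 3.11.15, pandas 2.3.3, numpy 2.4.6 and matplotlib 3.10.9. Scripts were tested on simulated data. All 8 markers are named; from each other list, up to 4 called genes with the smallest p for ConA with vehicle against untreated at 24 hr; and the 5 nearest profiles to Clec4f, Timd4, Marco and the mean of the markers. Some genes of these lists are not reported here. Markers and lists were chosen with earlier results of these data known. The marker pair tests, the ranking by co-variation with Clec4f, the fit with flagged spots kept and the fit with the dimmer Adgre1 probe were added after values were seen. Alternatives changed the background correction, scaling, filter, blocks and mice included.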

Additional observations from a re-analysis of the deposited data

Results flagged for a closer look

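In 40 sets of 5 livers (8 markers in 5 groups), the highest or lowest liver stood apart by Dixon's criterion in 3, where chance gives about 1 in 20. Cd5l read 1.95 in mouse 5 of ConA with vehicle at 24 hr, against 3.13 to 3.60 in the others. Cd163 read -6.14 in mouse 3 of ConA with BW245C at 3 hr, against -3.65 to -3.21. Cd163 read -4.84 in mouse 4 of ConA with vehicle at 24 hr, against -7.00 to -6.38, all 5 spots being not well above background.

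The change from untreated livers differed between 24 hr and 3 hr for 7 markers with vehicle and 8 with BW245C; since both times share the untreated livers, this is the same test as 24 hr against 3 hr. With vehicle the log2 difference of the changes was Adgre1 -1.52, Cd163 -2.25, Cd5l -1.33, Clec4f -3.30, Folr2 -1.64, Timd4 -2.33 and Vsig4 -3.37 (limma, adjusted p = 1.76e-05, 0.000425, 0.000934, 2.47e-08, 0.000459, 1.67e-07 and 1.69e-08). With BW245C the log2 difference of the changes was Adgre1 -1.30, Cd163 -2.49, Cd5l -0.76, Clec4f -2.67, Folr2 -1.46, Marco 0.99, Timd4 -1.57 and Vsig4 -2.78 (limma, adjusted p = 0.000129, 0.000161, 0.0404, 8.26e-07, 0.0015, 0.0337, 4.74e-05 and 1.83e-07). The Cd163 values include livers not well above background at 24 hr. With the floor used above, its signal there was 1.63-fold lower than at 3 hr with vehicle and 1.78-fold lower with BW245C. The fall may be smaller, as Cd163 spots of -4.32 and -4.35 at 3 hr with vehicle were also not well above background.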

How the results depend on the processing

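Over 72 marker results (8 markers in 9 comparisons), 2691 of 2790 alternative values kept their side of the threshold and 99 lost or gained a call. Of the called values 0 changed sign, and the sign of values not called was not counted. Counts of markers called moved as follows, and the cause was not tested. For ConA with vehicle against untreated at 3 hr, 0 were lower with the slide as a fixed block and 1 with it as a random block (block correlation 0.28). For BW245C against vehicle at 24 hr, 0 were higher with the scaling of the series matrix, no filter, a filter on all 25 arrays (which removes Vsig4), either form of slide block, the replicate number as a block, only the groups compared, and flagged spots kept. For ConA with BW245C against untreated, 0 were lower at 3 hr with either slide block, and at 24 hr the fixed block gave 4 lower and 0 higher. From 3 hr to 24 hr with BW245C, 0 were higher with either slide block, and 5 were lower with the fixed block. With the fixed block 31.4% of all genes were lower at 3 hr with vehicle against untreated. With BW245C against untreated 19.7% were lower at 3 hr and 20.9% at 24 hr, and from 3 hr to 24 hr 28.4%.

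Leaving out 1 mouse at a time, the number lower at 24 hr against untreated was 7 to 7 with vehicle and 7 to 7 with BW245C, and that from 3 hr to 24 hr 7 to 7 and 6 to 7. The number lower at 3 hr was 2 to 5 with vehicle and 0 to 4 with BW245C. The number higher with BW245C was 0 to 2 against vehicle at 24 hr, 0 to 1 against untreated at 24 hr, 0 to 1 from 3 hr to 24 hr, and 0 to 1 for the difference of the agonist effects between the times. All other such counts stayed at 0.

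Mouse numbers did not pair the arrays: the median correlation of same-numbered deviations was -0.01 over 50 pairs, and 4 of 25 arrays were closest to one of their own number. With the replicate number as a block, Vsig4 was higher with BW245C than vehicle at 24 hr by 0.86 (limma, adjusted p = 0.12). Slides and groups overlap in part, and the size of a change is uncertain for dim probes such as Cd163.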

Other observations

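Id3, which encodes a transcription regulator of Kupffer cells, was higher by 1.99 at 3 hr after ConA with vehicle (limma, adjusted p = 1.57e-07). With BW245C against vehicle at 3 hr Id3 differed by -2.45 (limma, adjusted p = 4.81e-07). Slc16a9, a carrier gene of the Kupffer list, changed by -2.67 at 3 hr and by -2.57 at 24 hr with vehicle, and differed by 1.21 between BW245C and vehicle at 24 hr (limma, adjusted p = 5.83e-08, 8.33e-08 and 0.00487). Mertk, a receptor for dying cells, changed by -1.25 at 3 hr and -1.28 at 24 hr with vehicle (limma, adjusted p = 3.57e-07 and 1.95e-07). These genes were picked after their values were seen.

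With BW245C against vehicle at 24 hr, 8 of 13 neutrophil genes were lower and 0 higher (median -1.70), 6 of 18 sinusoidal endothelial genes were higher and 0 lower, and 5 of 10 stellate cell genes were higher and 0 lower, where 17.6% of all genes were higher and 8.95% lower.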
